A study of Mus musculus with 9 samples.

Results

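The 29 genes described here encode DNA repair and damage checkpoint proteins. They were taken by name from a list that was put together with earlier results of these data known, although its rule used no measured value, and each symbol matched 1 of the 21938 protein-coding genes annotated in GENCODE M21 on chromosomes 1 to 19, X and Y of mm10. The data came from 1 library of C127 cells, a mouse mammary epithelial line with no treatment given in the labels. Genomic DNA of these cells was captured on a CXXC protein domain taken from KDM2B, a domain that holds non-methylated CpG sites (BioCAP), and the captured regions were called as non-methylated islands (NMIs). The series also holds 1 BioCAP input, 3 ATAC libraries, 1 ATAC input and 3 libraries of RNA labelled with 4-thiouridine, which were not analysed here, so that neither transcription nor the mammary label was checked. The list used held 13491 NMIs with no score and no replicate, and its depth is unknown. All differences given below are therefore differences between genes of 1 library, without a test over samples.

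Cells meet broken, mispaired or chemically changed DNA with separate pathways. The MRE11, RAD50 and NBN proteins sense double-strand breaks and activate the kinase ATM, whereas ATR and CHEK1 respond to stalled replication. Breaks are then rejoined by homologous recombination or by end joining, and crosslinks are handled by the Fanconi anaemia proteins. Damaged or mispaired bases are removed by base excision, nucleotide excision or mismatch repair, in some of these with a stretch of the strand around them. Promoters of such widely used genes usually lie in CpG islands, which stay free of methylation in most tissues.

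An NMI lay at an annotated transcript 5′ end (a start) of all 29 repair and checkpoint genes (100%, exact 95% binomial interval 88.1 to 100%), against 10425 of 21938 protein-coding genes (47.5%). Each of the 29 had exactly 1 NMI at its starts. Of all genes with an NMI, 408 of 10425 (3.91%) had more than 1. The interval covers counting error only, since the genes were not drawn at random and are not independent replicates. The widest NMI was that of Brca1 (2526 bp) and the narrowest that of Mgmt (347 bp). In 11 genes the NMI also held a start of a protein-coding gene on the other strand that was transcribed away from it, a divergent pair.

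The sequence between the starts of a divergent pair lies inside the NMI without belonging to either transcript from those starts. Whether both genes use this sequence as a promoter was not tested. It is shown for the 6 pairs whose outermost starts lay at least 40 bp apart, read 5′ to 3′ on the strand of the repair gene, with every CpG, the site that the capture domain binds, in capitals. For Atm the 300 bases next to its start are shown, of 306 between the starts.
Xpc-Lsm3 (chr6:91515889-91515927, minus strand): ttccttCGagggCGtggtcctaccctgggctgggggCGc
Palb2-Dctn5 (chr7:122132986-122133040, minus strand): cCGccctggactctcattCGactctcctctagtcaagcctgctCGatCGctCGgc
Pms2-Aimp2 (chr5:143909848-143909963, plus strand): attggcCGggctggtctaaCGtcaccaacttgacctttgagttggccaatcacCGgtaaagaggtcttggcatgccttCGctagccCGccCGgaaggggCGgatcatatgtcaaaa
Brca1-Nbr1 (chr11:101551956-101552148, minus strand): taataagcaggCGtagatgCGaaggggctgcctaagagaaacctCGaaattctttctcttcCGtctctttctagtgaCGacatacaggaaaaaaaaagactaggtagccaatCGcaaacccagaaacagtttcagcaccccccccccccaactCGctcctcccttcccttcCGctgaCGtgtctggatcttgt
Chek2-Hscb (chr5:110839778-110839978, plus strand): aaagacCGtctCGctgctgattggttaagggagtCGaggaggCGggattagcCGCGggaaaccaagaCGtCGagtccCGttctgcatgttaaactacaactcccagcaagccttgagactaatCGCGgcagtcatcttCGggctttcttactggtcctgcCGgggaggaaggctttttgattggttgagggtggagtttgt
Atm-Npat (chr9:53536741-53537040, minus strand): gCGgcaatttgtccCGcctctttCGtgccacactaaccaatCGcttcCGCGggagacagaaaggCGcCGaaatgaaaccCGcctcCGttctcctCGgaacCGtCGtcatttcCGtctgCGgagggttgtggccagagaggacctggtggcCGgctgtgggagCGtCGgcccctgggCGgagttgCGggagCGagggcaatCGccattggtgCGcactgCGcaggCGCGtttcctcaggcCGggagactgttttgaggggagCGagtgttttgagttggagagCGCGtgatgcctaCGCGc
The number of CpG sites was 3 in the 39 bases between Xpc and Lsm3, 5 in 55 bases at Palb2, 7 in 116 bases at Pms2, 9 in 193 bases at Brca1 and 13 in 201 bases at Chek2. The 300 bases before Atm held 32. Per 100 bp, Brca1 had the fewest (4.66) and Atm the most (10.7).

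For comparison, the 200 bases before the outermost start are shown for Msh6, whose NMI was the richest in CpG of the 29, and for Mgmt, whose NMI was the narrowest. Both were picked after their values were seen.
Msh6 (chr17:87974862-87975061, plus strand): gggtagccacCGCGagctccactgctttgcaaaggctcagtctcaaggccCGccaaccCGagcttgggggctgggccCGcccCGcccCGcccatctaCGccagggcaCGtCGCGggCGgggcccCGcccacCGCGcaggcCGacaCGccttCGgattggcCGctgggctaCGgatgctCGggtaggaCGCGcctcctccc
Mgmt (chr7:136894414-136894613, plus strand): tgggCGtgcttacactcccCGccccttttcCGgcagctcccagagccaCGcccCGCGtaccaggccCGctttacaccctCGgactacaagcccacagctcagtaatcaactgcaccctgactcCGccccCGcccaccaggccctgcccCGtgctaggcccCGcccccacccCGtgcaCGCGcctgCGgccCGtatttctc
The stretch before Msh6 held 23 CpG sites and that before Mgmt held 17. Both stretches lie wholly inside the islands. In the wider window of 500 bp on each side of the start, Mgmt had 3.40 CpG per 100 bp, against a median of 6.49 in all protein-coding genes with an NMI.

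**Figure D1:**
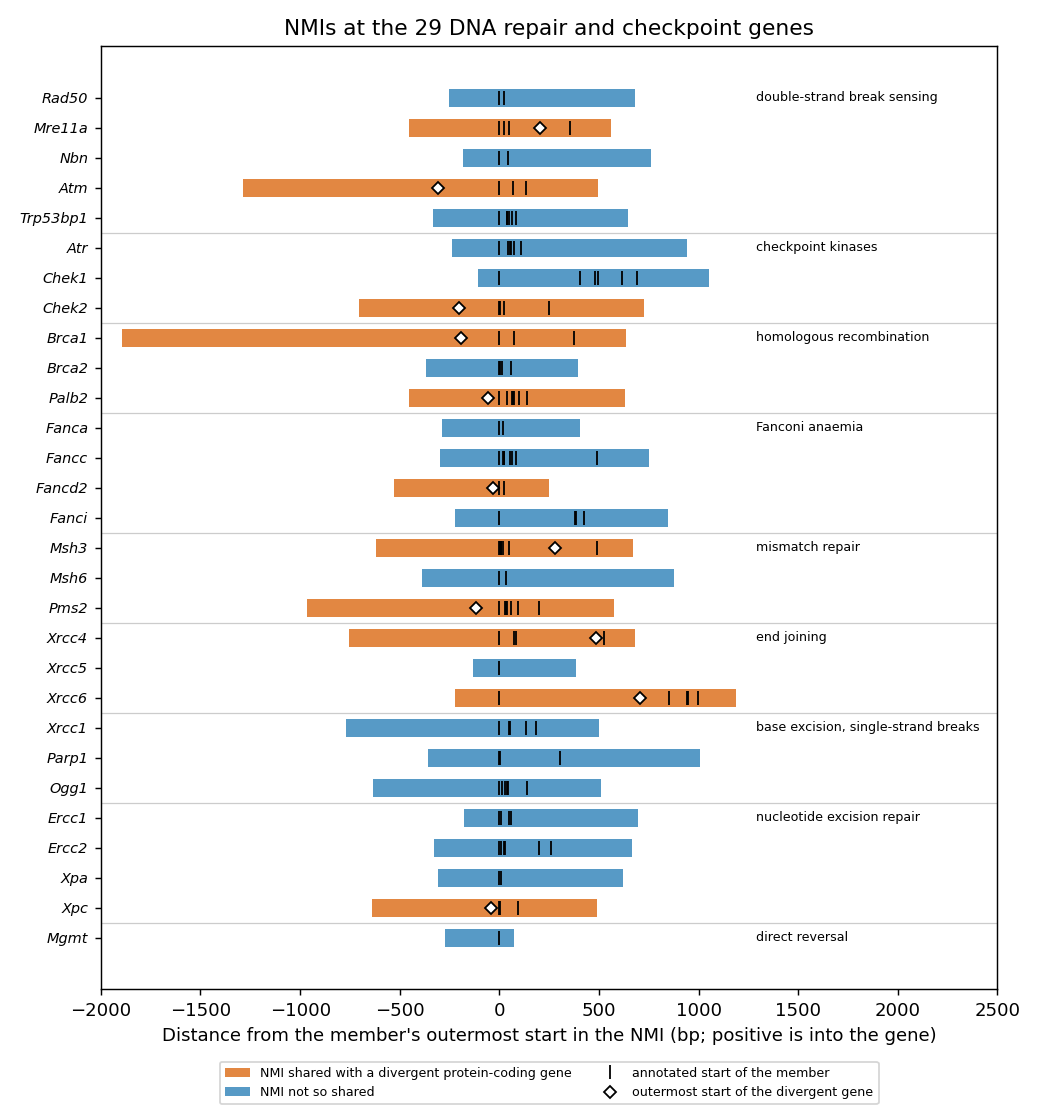
Extent of the NMI at each of the 29 genes (bars), in bp from the gene's outermost start that lies in the NMI, with positive values running into the gene. Ticks are the annotated starts of the gene and diamonds the outermost start in the NMI of a divergent protein-coding gene. The bar of Brca1 reaches 1892 bp upstream and that of Mgmt only 74 bp into the gene.

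Among the sensors of double-strand breaks, the NMIs were close to 1 kb wide with the exception of Atm. Rad50, a coiled-coil subunit that holds DNA ends together, had an NMI of 932 bp (chr11:53706639-53707570), and Nbn, which links the complex to ATM, had 944 bp (chr4:15957744-15958687). The nuclease gene Mre11a had 1013 bp (chr9:14784199-14785211). The subunits of this complex thus had islands of similar width. Trp53bp1, whose protein steers breaks towards end joining, had 979 bp (chr2:121270763-121271741). Atm, the kinase gene, had 1779 bp (chr9:53536248-53538026), which was wider than the NMIs of 82.6% of all protein-coding genes with an NMI. Its start divided the island unequally, with 1286 bp upstream and 493 bp downstream.

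The checkpoint kinase genes lay near the middle of the width range. Atr, which encodes the kinase for stalled forks, had 1179 bp (chr9:95857359-95858537). Chek1, its downstream kinase, had 1158 bp (chr9:36726015-36727172), of which 1051 bp lay downstream of the first start. That start belongs to a transcript without a coding sequence, and the other 5 starts in the island lay further downstream. Chek2, the kinase downstream of ATM, had 1431 bp (chr5:110839276-110840706) that were split almost evenly, with 703 bp upstream and 728 bp downstream.

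The homologous recombination genes held both a very wide and a narrow island. Brca1 had the widest of the 29 (2526 bp, chr11:101551322-101553847), wider than 96.0% of all genes with an NMI. It was also the poorest of the 29 in CpG, with 3.96 per 100 bp and a GC content of 50.5%. Brca2, which acts in strand exchange, had only 766 bp (chr5:150522261-150523026) but 8.09 CpG per 100 bp. Its ratio of observed to expected CpG, which corrects for base composition, was the highest of the 29 at 1.02. Palb2, the partner that bridges the BRCA proteins, lay between them in width (1082 bp, chr7:122132357-122133438) and stood at the median of all 29. Brca1, Brca2, Palb2, Atm and Chek2 are also tumour suppressor genes, and their NMIs spanned 766 to 2526 bp.

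The Fanconi anaemia genes had some of the narrower islands. Fanca, a core complex gene, had 692 bp (chr8:123318174-123318865). Fancd2 had 777 bp (chr6:113531152-113531928) and Fanci 1073 bp (chr7:79391705-79392777), although their proteins form a pair that is ubiquitinated together. Fancc, another core complex gene, had 1051 bp (chr13:63430995-63432045) and 8.18 CpG per 100 bp, against 5.78 at Fanca, 5.92 at Fancd2 and 4.85 at Fanci.

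The mismatch repair genes all had islands wider than the median of 1210 bp over all protein-coding genes with an NMI. Msh3, which recognizes larger loops, had 1292 bp (chr13:92354331-92355622), and Msh6, which recognizes single mispairs, had 1269 bp (chr17:87974672-87975940). Pms2, which nicks the new strand, had 1544 bp (chr5:143908998-143910541). In CpG content they were apart, with 10.4 per 100 bp at Msh6, 8.28 at Msh3 and 5.63 at Pms2.

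In end joining, genes whose proteins work as a pair had islands of different width. The Ku proteins, which clamp onto DNA ends as a pair, are encoded by Xrcc5 and Xrcc6. Xrcc5 had an NMI of 517 bp (chr1:72307288-72307804) with 23 CpG sites, narrower than those of all but 3.45% of genes with an NMI. Xrcc6 had 1410 bp (chr15:82015295-82016704) with 92 CpG sites. Xrcc4, which holds the ligase, had 1435 bp (chr13:90088928-90090362).

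Genes for the repair of bases and single-strand breaks had NMIs of 1144 to 1364 bp. Parp1, the sensor of single-strand breaks, had 1364 bp (chr1:180568566-180569929). Xrcc1, the scaffold of this pathway, had 1274 bp (chr7:24546378-24547651), and Ogg1, the glycosylase for oxidized guanine, had 1144 bp (chr6:113326337-113327480). The nucleotide excision genes were narrower as a group, between 874 and 1132 bp. Xpc, the damage sensor, had 1132 bp (chr6:91515398-91516529) and Ercc2, a helicase of TFIIH, had 996 bp (chr7:19381681-19382676). Xpa had 930 bp (chr4:46195692-46196621) and Ercc1, which encodes a subunit of a nuclease, had 874 bp (chr7:19344922-19345795). Mgmt, whose protein removes alkyl groups from guanine in a single step, had 347 bp (chr7:136894341-136894687), narrower than those of all but 1.16% of genes. The Mgmt island ended on the last base of the 74 bp first exon, so that its first intron held none of it.

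Over the 29 genes the median width was 1082 bp (lower quartile 932 bp, upper quartile 1292 bp), against 1210 bp (921 to 1592 bp) over the 10425 protein-coding genes with an NMI. An exact binomial interval for the median of the 29 ran from 944 to 1274 bp and held the value of all genes. It covers counting error only, since the genes were not drawn at random, and is no test of the 2 medians. Of the 29, 10 were wider than the median of all genes. CpG density had a median of 6.42 per 100 bp in the repair genes and 6.86 in all genes, GC content one of 58.8% and 60.6%, and the observed/expected ratio one of 0.785 and 0.764. Repeats made up a median of 6.34% of the repair gene islands and 5.68% of all.

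**Figure D2:**
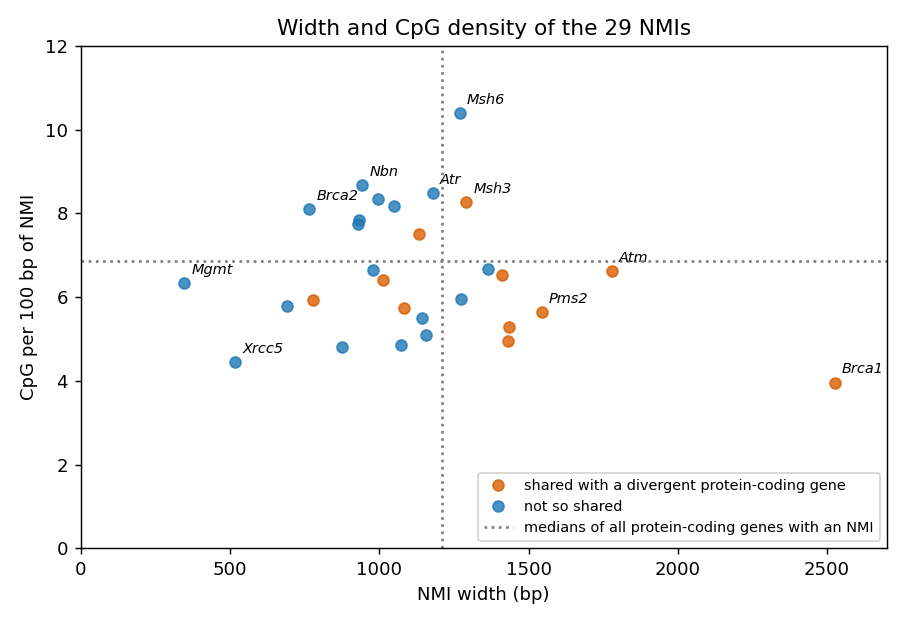
NMI width (bp) and CpG per 100 bp of NMI for the 29 genes, with the medians of all protein-coding genes with an NMI as dotted lines (1210 bp and 6.86). Brca1 lies far to the right at 2526 bp and 3.96 CpG per 100 bp, and Msh6 is uppermost at 10.4.

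Divergent pairs were examined next. The NMI was shared with a divergent protein-coding gene in 11 of the 29 (37.9%, exact 95% interval 20.7 to 57.7%), against 2189 of 10425 protein-coding genes with an NMI (21%). The interval held the share of all genes by a small margin. The other 18 islands held no protein-coding start but their own. With genes of any biotype counted, the numbers were 13 of 29 (44.8%) and 31.7% of all genes. The additional 2 were Atr with 1700065D16Rik and Ogg1 with Gm15492, both partners annotated as antisense genes. At Atr the outermost starts overlapped by 725 bp, more than the 500 bp allowed, so that the call rests on other starts in the island. No gene was found on the same strand in any of the 29 islands, and no pair joined a member to another member.

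The partners came from many parts of cell biology. Brca1 shared its NMI with Nbr1, an autophagy receptor gene, whose start lay 194 bp away, and 1698 bp of the island lay beyond that start on the Nbr1 side. This side therefore made up most of the widest island. Atm faced Npat, a coactivator of histone genes, across 307 bp, with 979 bp of island beyond the Npat start. Chek2 faced Hscb, which encodes a co-chaperone for iron-sulphur clusters, across 202 bp. Pms2 faced Aimp2, a scaffold gene of the aminoacyl-tRNA synthetase complex, across 117 bp. The closest were Palb2 and the dynactin gene Dctn5 at 56 bp, Xpc and the RNA-binding gene Lsm3 at 40 bp, and Fancd2 and Emc3, an endoplasmic reticulum membrane complex gene, at 30 bp. In these 7 pairs the outermost starts did not overlap.

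In the other 4 pairs the outermost starts in the island overlapped, so that the first transcribed bases belonged to both genes. Among them, the overlap was 202 bp for Mre11a and Ankrd49, 485 bp for Xrcc4 and Tmem167, and 706 bp for Xrcc6 and the desumoylase gene Desi1. At Xrcc6 this exceeded the 500 bp allowed for a pair, and the call rests on other starts of these genes in the island. Each pathway above held at least 1 of the 11 shared islands, except base excision and direct reversal, which held none.

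NMIs shared with a divergent gene had a higher median width, of 1410 bp in the 11 repair genes, against 987.5 bp in the other 18. The ranges overlapped widely, from 777 to 2526 bp and from 347 to 1364 bp. Over all protein-coding genes the medians were 1418 bp for shared and 1158 bp for other islands. A wider island is more likely to hold a second gene's start, so that width and sharing are linked by definition. CpG density ran the other way, with a median of 5.92 per 100 bp in the 11 shared islands and 6.66 in the other 18, and with 6.47 and 6.99 over all genes.

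**Figure D3:**
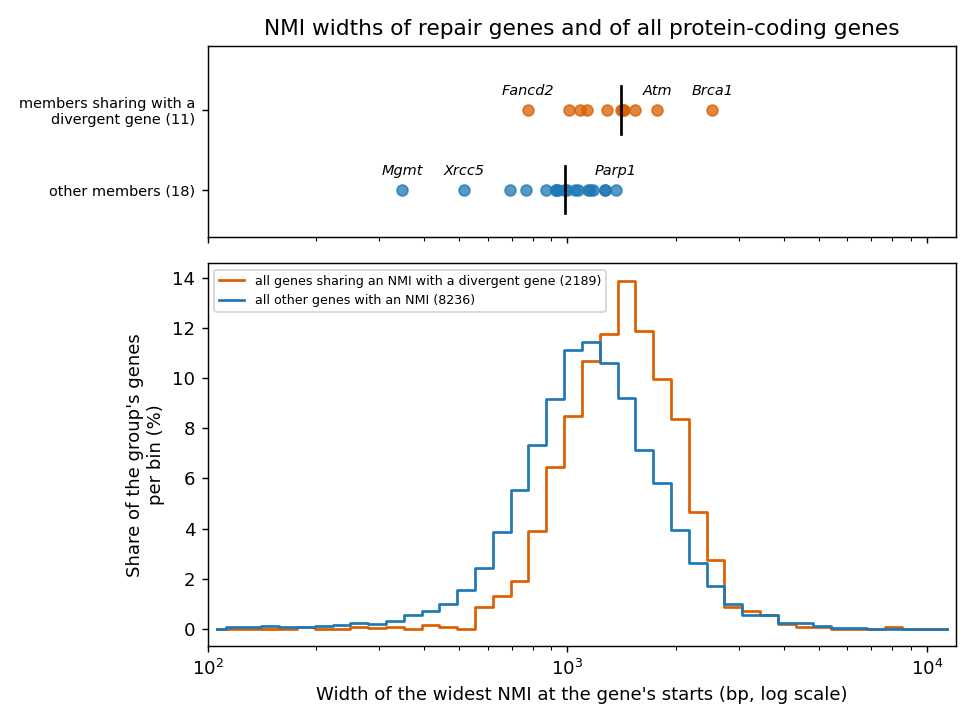
Width of the NMI (bp, log scale) of the 29 genes as points (top, with the median of each group as a bar) and of all protein-coding genes as the share of each group per bin (bottom), split by whether the NMI is shared with a divergent protein-coding gene. The 11 shared repair gene islands have a median of 1410 bp and the other 18 a median of 987.5 bp.

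The position of the start within the island also differed. In the 11 genes with a divergent protein-coding partner the island reached a median of 641 bp upstream and 629 bp downstream of the first start in it, and it reached further downstream in 5 of 11 (45.5%). In the 18 without such a partner the medians were 294.5 bp upstream and 674 bp downstream, and the island reached further downstream in 15 of 18 (83.3%). The 3 exceptions among the 18 were Xrcc1, Ogg1 and Mgmt. Over all protein-coding genes with an NMI the island reached further downstream in 50.0% with a partner and in 86.3% without. The repair genes had shares close to these. Over all genes with a partner, a share near 50.0% is largely set by the definition, since both genes of a pair are generally counted. The upstream side of either gene is then mostly the downstream side of the other. Among the repair genes the downstream medians were close to each other, whereas the upstream medians, on the partner's side, differed. Where the starts do not overlap, a shared island must reach upstream to the partner's start. Part of the upstream difference thus follows from the definition.

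The first exon was then set against the islands. With the principal coding transcript of each gene, 26 of 29 islands (89.7%) held all of exon 1, against 83.5% over all protein-coding genes with an NMI. A median of 183 bp of exon and 432 bp of intron lay in the islands of the repair genes, against 224 bp and 411 bp over all genes. The repair genes whose first exon was not wholly covered were Chek1, Xrcc1 and Ercc1. The start codon lay in the island in 17 of 29 genes (58.6%), against 62.0% of all genes with an NMI. In genes such as Brca1, Brca2, Atm and Chek2 it lay outside, so that the exonic part of the island was 5′ untranslated.

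The 29 genes had 232 annotated starts, of which 119 (51.3%) lay in the island, against 57.8% over all protein-coding genes with an NMI. Of 136 transcripts that began in the islands, 73 (53.7%) were annotated as protein-coding, and of 113 that began elsewhere, 23 (20.4%). Over all protein-coding genes with an NMI the shares were 62.7% inside and 34.2% outside, so that the difference between the places was not limited to the repair genes. The outermost start lay in the island in 25 of 29 genes (86.2%), against 88.3% of all genes with an NMI. The 4 others had an annotated first start further upstream. It lay 89 bp outside the island at Xrcc1 and 144 bp outside at Ercc1. At Fancc it lay 65233 bp away and at Xrcc6 27460 bp away, each the start of 1 annotated coding transcript. Around these distant starts the CpG density was 1.70 per 100 bp at Fancc and 0.999 at Xrcc6, against 6.99 and 3.70 around the first start within the island.

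CpG density around the outermost start was then compared over all genes, in windows of 500 bp on each side. The 29 repair genes had a median of 6.29 CpG per 100 bp, against 6.49 in all protein-coding genes with an NMI and 1.40 in those without. All genes were divided by this density into 10 bins of similar size. Of the repair genes, 1, 2 and 5 fell in bins 3, 4 and 5 from the lowest, where 11.0, 15.3 and 41.9% of all genes had an NMI. These were Xrcc6 (0.999), Fancc (1.70), Xrcc1 (2.30), Fanci (3.00), Ercc1 (3.10), Mgmt (3.40), Xrcc5 (3.50) and Chek1 (3.90 CpG per 100 bp). In 4 of them, Xrcc6, Fancc, Xrcc1 and Ercc1, the island lay at another start than the outermost. The other 4 had the island at the outermost start itself. The remaining 21 genes fell in the upper bins, where 69.4 to 83.9% of all genes had an NMI.

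**Figure D4:**
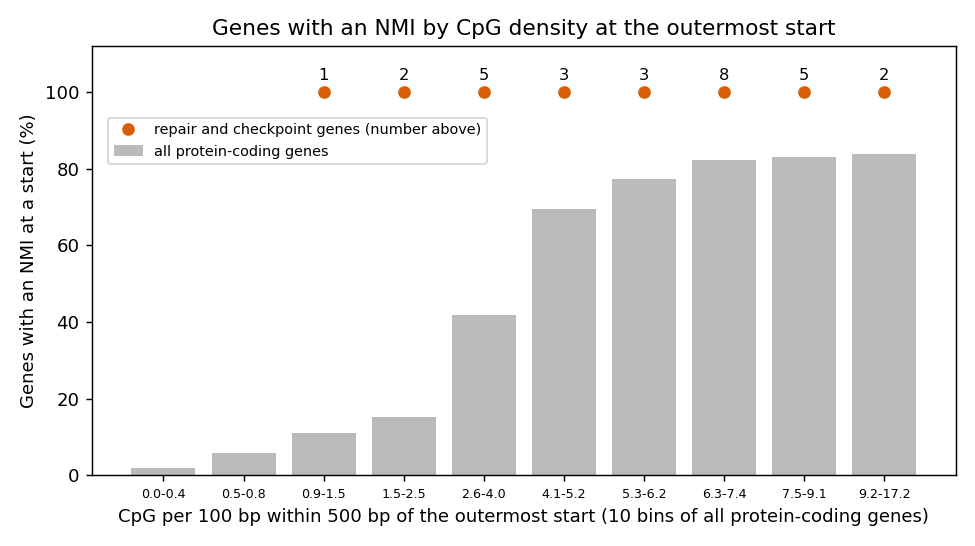
Share of genes with an NMI at a start (%), by CpG per 100 bp around the outermost start, in 10 bins of all protein-coding genes. Points are the repair and checkpoint genes, with their number per bin, and bars are all protein-coding genes. In each bin that holds repair genes all of them had an NMI, while the bars of those bins run from 11.0 to 83.9%.

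Short sequence motifs were counted in the 300 bases before the outermost start, on both strands and by exact letters. At Xrcc1, Ercc1, Fancc and Xrcc6 this start lay outside the island. CCAAT, the letters bound by NF-Y, stood in 12 of 29 (41.4%), against 39.8% of all 21938 promoters. GGGCGG, the GC box of SP1, stood in 18 of 29 (62.1%), against 40.4% of all promoters and 60.7% of those of genes with an NMI. CCGGAAG, the core of ETS sites, stood in 5 (17.2%), against 8.58% of all and 14.9% of those with an NMI. CCAAT was as frequent among promoters of genes with an NMI (39.9%) as among all.

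Rarer letters gave small counts. The E-box CACGTG stood in 4 of 29 (13.8%), against 7.24% of all promoters and 9.74% of those with an NMI. TATAAA stood in 2 (6.90%), Brca2 and Fancc, against 13.7% of all and 7.56% of those with an NMI. At Fancc the window lay far from the island. TGACGTCA, the CREB site, was found at Brca2 alone (2.03% of all promoters) and TGCGCATGC, the core of the NRF1 site, at Xpa alone (1.93%). Of 4 spellings of E2F sites, TTTCGCGC (0.328% of all) and TTTGGCGC (0.615%) stood before Msh3, TTTCCCGC (1.20%) before Brca2 and Chek2, and TTTGGCGG (0.615%) before none. At least 1 of the 4 stood before 3 of 29 (10.3%), against 2.65% of all promoters and 4.23% of those with an NMI. Positions in the sequences printed above are counted from 1 at the first base, and a motif on the opposite strand is placed by its leftmost base. Between Chek2 and Hscb, TTTCCCGC stood at base 54, with CCAAT at bases 20 and 180, all on the opposite strand. Between Pms2 and Aimp2, CCAAT stood at base 46 and, on the opposite strand, at base 1. There CCGGAAG at base 90 overlapped GGGCGG on the opposite strand at base 86, and a further GGGCGG began at base 97. Between Brca1 and Nbr1 the CCAAT letters stood once, at base 108, and between Xpc and Lsm3 none of the motifs was found. A match is a description of letters and shows no binding.

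The wider set of repair genes was described with a second list of 106 genes from the same pathways and from translesion synthesis, none of them among the 29. An NMI lay at a start of 102 of 106 (96.2%, exact 95% interval 90.6 to 99.0%), against the 47.5% of all protein-coding genes. All listed genes had one in break sensing (6 of 6), checkpoint signalling (12 of 12), homologous recombination (21 of 21), nucleotide excision (17 of 17), direct reversal (2 of 2) and translesion synthesis (6 of 6). In the other classes it was 10 of 11 Fanconi anaemia, 3 of 4 mismatch repair, 7 of 8 end joining and 18 of 19 base excision genes. The 4 genes without were Fancb on X, the mismatch repair gene Mlh3, the glycosylase gene Neil2 and Dntt, a polymerase of lymphocytes that adds bases at antigen receptor joints. The nearest NMI lay 9165 bp or more from any of their starts. The widest islands were at Fancm (3022 bp), the checkpoint kinase gene Wee1 (2423 bp), the polymerase gene Rev3l (2392 bp) and Tdp1 (2282 bp). The median width was 1100 bp. Of the 102 islands, 35 (34.3%, exact 95% interval 25.2 to 44.4%) were shared with a divergent protein-coding gene, against 21% of all genes with an NMI. This interval did not hold the share of all genes. It covers counting error only, since the list was not drawn at random.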

How the data were processed

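BioCAP was performed on genomic DNA of C127 cells. Per the methods, Bowtie2 placed the reads on mm10. Only reads with a single position were kept by the authors, SAMtools took out duplicates, and NMIs came from MACS (MACS2 in the submitters' processing notes). The sources name neither versions nor whether the input served as control. The file deposited by the authors gives only chromosome, start and end of each NMI, and starts were converted to count from 1. A gene without an NMI would be one with none in this list, which is no measure of its methylation.

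Of 13491 NMIs, 13489 lay on chromosomes 1 to 19, X and Y. A gene had an NMI when the 5′ end of any GENCODE M21 transcript lay in it by at least 1 bp, and the widest was used. A divergent gene had a start in the same NMI on the other strand, head to head or overlapping by at most 500 bp for at least 1 pair of starts. Sequences and composition came from the NCBI RefSeq copy of GRCm38.p6, which shares mm10 coordinates, with lower-case bases counted as repeats. Shares carry exact (Clopper-Pearson) 95% intervals. No test was made, since there was 1 library. The overlap functions were tested on simulated intervals.

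All 29 genes, genes sharing their NMIs, the 4 widest of the second list and up to 8 of its genes without an NMI were named by rule. The partner of 1 divergent pair is not reported here. Members and lists were chosen with earlier results of these data known. Alternatives were the outermost or protein-coding 5′ ends, other distances and overlaps, NMIs above 572.5 bp and other definitions of a divergent gene. Scipy 1.17.1 and pysam 0.24.0 were used.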

Additional observations from a re-analysis of the deposited data

How the results depend on the processing

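Of 26 alternatives over 4 results (the count of repair genes with an NMI, their median width, the count with a divergent protein-coding gene and the count of the second list), 25 stayed within 1.5 times the count or within the interval of the median. The exception was the strictest definition of a divergent pair, with the outermost starts of both genes in the island and no overlap, under which 7 of 29 repair genes and 12.7% of all genes with an NMI had one. Mre11a, Msh3, Xrcc4 and Xrcc6 were lost there by construction. With the outermost start alone, 25 of 29 had an NMI (42.5% of all protein-coding genes), without Ercc1, Fancc, Xrcc1 and Xrcc6. Without NMIs of 572.5 bp or less, 27 had one (45.3% of all protein-coding genes), without Mgmt and Xrcc5. With at least 100 bp of island on each side of a start, 28 had one (46.5% of all protein-coding genes), without Mgmt. Within 1000 bp of a start, Xrcc1 also counted as divergent (12 of 29, against 21.85% of all genes with an NMI). The median width ran from 1082 to 1132 bp. No paired analysis was possible because the list comes from 1 library. Without scores, replicates or a known depth, the error of a single width is unknown.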

Other observations

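Beyond the islands at their starts, the repair genes held few other NMIs. Only Mgmt had a further one within its annotated body, an island of 197 bp (chr7:137086082-137086278) that overlapped an annotated exon 191468 bp downstream of the start and held the start of no gene. Outside the gene bodies but within 10 kb of them lay further NMIs, among them those at starts of Ndufab1 near Palb2, Xrn1 near Atr, Ttc28 near Chek2, Brk1 near Fancd2, Snu13 near Xrcc6, Klc3 near Ercc2 and Camk1 near Ogg1. Near Ercc1, an island of 3420 bp (chr7:19358809-19362228) held starts of Cd3eap and Ppp1r13l and was wider than any of the 29.

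Xrcc1 lay head to head with Pinlyp, whose nearest start was 171 bp from the outermost start of Xrcc1 and 260 bp from the closest NMI. That start of Xrcc1 itself lay 89 bp outside the island, so that neither start lay in it. The island held other starts of Xrcc1 only. In the second list, some islands were shared by repair and cell cycle or chromosome genes, among them those of Prkdc and Mcm4 (1218 bp) and of Gen1 and Smc6 (1873 bp). These pairs were picked after their values were seen.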
